A study of Mus musculus with 2 samples.

Results

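Histone genes were taken as all genes of the spliced count matrix whose mouse symbol marks a core or linker histone, with pseudogenes left out. That gave 83 members among 54838 gene IDs: 64 replication-dependent genes, 15 variant genes, 3 testis genes (Hist1h1t, Hist1h2aa and Hist1h2ba) and H3f3aos, an antisense transcript that entered no histone sum. The rule used only gene names and no measured value. The testis class was a list of these 3 symbols, and every coding member without a Hist symbol counted as a variant, whatever its tissue. Single-cell RNA had been sequenced in cells of the mouse line 63.3, an acute myeloid leukemia line, grown with 0.5 µM beta-estradiol and stem cell factor from conditioned medium of a hamster cell line. A MULTI-seq barcode marked the cells of each culture before the cultures were pooled for 2 runs of the 10x Genomics v3 chemistry. Cultures of the brequinar series received 2 µM brequinar, an inhibitor of the pyrimidine synthesis enzyme dihydroorotate dehydrogenase, for 6, 12, 24 or 48 h. Those of the withdrawal series were washed and kept without estradiol for the same times, and each series had its own 0 h culture, whose solvent the labels do not give. The labels name only estradiol as left out of the withdrawal medium, and they give no genotype or driver for the line. Each of the 10 conditions was 1 culture, so no difference has a replicate check, no test was run, and every interval below is an exact 95% interval of counting error only. No untreated culture of 6 to 48 h is among these conditions, so effects of time in culture cannot be told apart from those of treatment.

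Replication-dependent histone genes stand in clusters and are transcribed mainly in S phase, when new chromatin has to be packed. Their mRNAs end in a conserved stem-loop bound by SLBP instead of a poly(A) tail, and they are degraded when DNA synthesis stops. Variant histone genes are scattered, carry introns in many cases, make polyadenylated mRNA throughout the cell cycle and replace core histones outside replication. The 10x chemistry primes on poly(A), so the replication-dependent counts here come from mRNA with a poly(A) tail or an internal run of A, and the stem-loop form may go largely uncounted.

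The cells of the 10 conditions, 528 to 1536 each, summed to 5236694 to 19931921 spliced unique molecular identifiers (UMIs). A level is given as CPM, counts in 1000000 of that sum, and 3 counts, taken as the floor, equal 0.151 to 0.573 CPM. Median UMIs per cell ran from 6509 at 48 h of withdrawal to 15229 at 0 h of that series. All 10 myeloid progenitor markers reached 20 CPM, with a summed level of 6488 to 15002 CPM, while 4 T cell, 4 erythroid and 4 stroma markers stayed below it. Of 4 B cell markers 1 and of 3 megakaryocyte markers 3 reached 20 CPM, with summed levels of 3.46 to 33.2 and 24.0 to 169 CPM. Cells with at least 10% mitochondrial UMIs made up 1.70% to 22.7% of a culture.

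Of the 64 replication-dependent genes 51 lie on chromosome 13, 10 on chromosome 3, 2 on chromosome 11 and 1 on chromosome 6. In GENCODE M21 transcripts (GRCm38), 45 of the 64 and 1 of the 15 variant genes, H2afx, held the stem-loop. It was searched on the transcript strand as 16 letters, GG, any 3, TT, any 3, A, any 3 and CC, with the first and last 6 letters paired. Among 141647 transcripts of other genes 0.188% held it, and 0.2% on the opposite strand. The windows below show this element in 6 of the genes described next. Hist1h1e, Hist1h1c, Hist1h2ae and Hist1h2bj share the same 16 letters, and all 6 genes differ in how far the transcript runs past them. Capitals mark the stem-loop, 5 bases stand on each side, and all 6 genes have a single annotated exon.
Hist1h1e: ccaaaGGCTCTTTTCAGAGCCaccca
Hist1h1c: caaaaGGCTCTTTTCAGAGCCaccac
Hist1h2ae: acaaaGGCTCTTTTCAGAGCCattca
Hist1h2bj: ccaaaGGCTCTTTTCAGAGCCacgca
Hist1h4i: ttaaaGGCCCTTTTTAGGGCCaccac
H2afx: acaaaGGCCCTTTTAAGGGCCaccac

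These windows lie at chr13:23621777-23621802 (minus strand), chr13:23739507-23739532 (plus), chr13:23570663-23570688 (minus), chr13:22043633-22043658 (plus), chr13:22040961-22040986 (minus) and chr9:44335235-44335260 (plus). The stem began with GGCTCT in all 33 genes of the H1, H2A, H2B and H3 families that held a stem-loop and in 0 of 12 H4 genes, whose stems read GGCCCT or GGTCCT. H2afx had the H4 type of stem. The annotated transcript ran 1153 bases past the stem-loop in Hist1h1e, 840 in Hist1h1c, 330 in Hist1h4i, 822 in H2afx, 151 in Hist1h2ae and 23 in Hist1h2bj. Of the 18 replication-dependent genes annotated for 200 bases or more past it, 10 reached 5 CPM in some condition, against 9 of 27 with a shorter end. For 19 genes no stem-loop lay in the annotated transcript, and 3 of these reached 5 CPM. They are Hist1h1b, Hist1h1a and Hist1h2bc, which has a transcript of 2 exons. The annotated transcripts of Hist1h1b and Hist1h1a have 743 and 741 bases and may end before a stem-loop. These counts describe annotated ends and not the mRNAs of these cells, and a link of the annotated end with level was not tested.

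Near-identical copies limit what can be counted per gene. A median of 37.6% of a replication-dependent gene's 31-base words occurred in no other annotated gene. All 6 replication-dependent genes with under 5% such words had 0 counts, among 9 with 0 counts in all. The 7 at 20 CPM or more in some condition had 52.1% to 99.7%, so family sums come first below, and the level of a single copy is uncertain where copies share sequence. Exons of Hist1h1e overlap those of Hist1h2be and Gm11398 on the same strand in this annotation, and exons of H1fx those of Gm47286. The split of reads between such genes is uncertain too. H2afx, H2afj, H2afy, H3f3a, H1fx and Hist1h2ae overlap antisense genes, and the strand setting of the counting is not given in the sources used here.

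Only 22 replication-dependent genes reached 5 CPM in some condition and 7 reached 20 CPM. By family, 5 of 5 H1, 5 of 17 H2A, 5 of 17 H2B, 4 of 12 H3 and 3 of 13 H4 genes reached 5 CPM. Another 33 had counts below 5 CPM and 9 had none. The 68017 replication-dependent UMIs were unevenly spread, with 64.4% in Hist1h1b, Hist1h4i, Hist1h1e and Hist1h1c and 51.3% in the 5 linker histone H1 genes. Of the variants 8 reached 20 CPM, 3 had counts below 5 CPM and 4 had none (H2afb1, H2afb2, H2afb3 and H1fnt). The linker histone gene H1f0 of resting and mature cells stayed at 0 to 0.291 CPM, and H2afy2, which encodes a macroH2A, at 0 to 0.583 CPM, each on 4 counts or fewer per culture. The testis genes stayed at 0 to 0.291 CPM in sum.

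The 0 h cultures of both series lay close together. The replication-dependent sum was 590.2 CPM at 0 h of the brequinar series and 573 CPM at 0 h of the withdrawal series, a ratio of 1.03 (1.00 to 1.06). Among 13 members at 20 CPM or more in either, 0 were 1.5-fold higher and 0 lower, beside 0% and 0.0546% of 5490 genes. With a minimum of 5 CPM, 0 of 19 replication-dependent genes were lower, beside 0.109%.

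In CPM, brequinar cultures held less replication-dependent histone mRNA at every time. The sum was 590.2, 431, 309.8, 351 and 427 CPM at 0, 6, 12, 24 and 48 h of brequinar. At 0, 6, 12, 24 and 48 h of withdrawal it was 573, 659, 594, 586 and 567 CPM. The 4 brequinar values after 0 h all lie below every value of the withdrawal series and below both 0 h values. The ratio to the brequinar 0 h culture was 0.731 (0.708 to 0.754) at 6 h, 0.525 (0.508 to 0.543) at 12 h, 0.595 (0.577 to 0.614) at 24 h and 0.723 (0.691 to 0.757) at 48 h. The ratio to the withdrawal 0 h culture was 1.15 (1.12 to 1.18) at 6 h, 1.04 (1.01 to 1.07) at 12 h, 1.02 (0.994 to 1.05) at 24 h and 0.989 (0.954 to 1.03) at 48 h, and its direction at 12 and 48 h turned with scaling by edgeR's trimmed mean of M values (TMM; ratios 0.955 and 1.14). TMM scaling moved the median log2 ratio of all genes by -0.16, -0.20, -0.24 and -0.20 at 6, 12, 24 and 48 h of brequinar and by -0.17, -0.12, 0.04 and 0.21 at those times of withdrawal. The replication-dependent ratios for brequinar were then 0.653, 0.456, 0.505 and 0.629, on the same side as before. Per cell the sum was 7.83, 4.52, 3.22, 3.86 and 4.23 UMIs over the brequinar times. Over the withdrawal times it was 7.88, 6.36, 5.24, 6.13 and 4.04 UMIs, so it fell there too. At 48 h the brequinar culture thus stood above the withdrawal culture per cell. Depth differs between these 2 cultures, with medians of 9782 and 6509 UMIs per cell. Cells rich in mitochondrial UMIs were 18.4% at 0 h, 3.79% at 24 h and 1.70% at 48 h of brequinar, and 16.6% at 0 h and 3.12% at 48 h of withdrawal. Without them the brequinar ratios were 0.723, 0.523, 0.584 and 0.709 at 6, 12, 24 and 48 h.

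**Figure D1:**
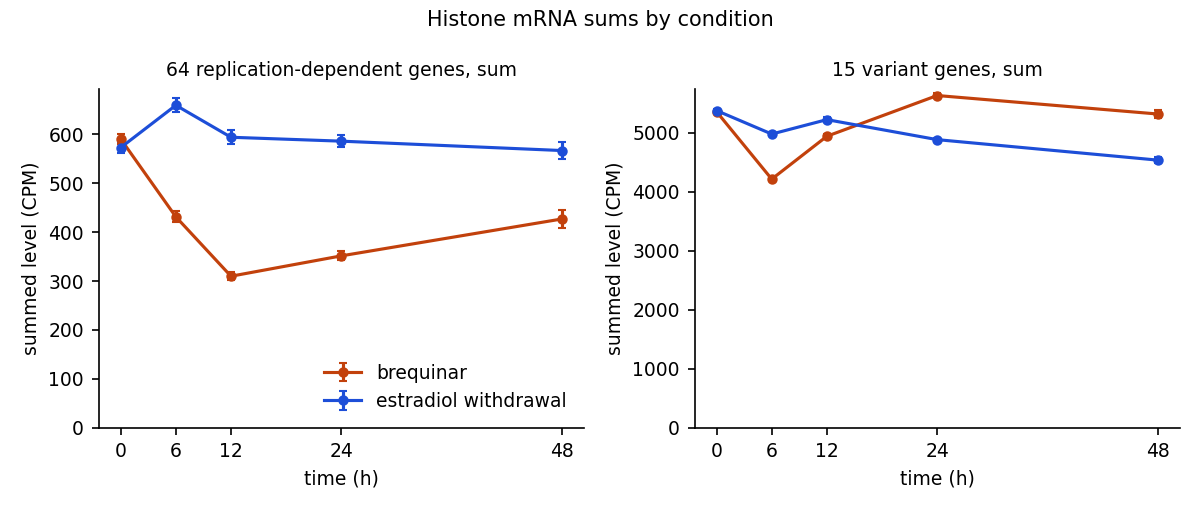
Summed level in CPM of the 64 replication-dependent genes (left) and the 15 variant genes (right) against time in h, for brequinar and estradiol withdrawal; points are single cultures and bars exact 95% counting intervals. The replication-dependent sum lies at 309.8 CPM at 12 h of brequinar and at 594 CPM at 12 h of withdrawal, while the variant sums at that time are 4937 and 5218 CPM.

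The H3 sum was 38.9, 19.5, 10.3, 8.80 and 12.8 CPM over the brequinar times, ratios of 0.501, 0.266, 0.226 and 0.329 to 0 h at 6, 12, 24 and 48 h. H2A genes stood at 72.0, 41.3, 23.6, 26.8 and 24.1 CPM and H1 genes, whose proteins bind linker DNA, at 311, 217, 121, 161 and 134 CPM over the same times. All 4 brequinar values of H1, H2A and H3 lie below their 0 h value. The H2B sum was 55.3, 51.7, 24.2, 38.8 and 111 CPM, lower at 12 h (0.437, interval 0.388 to 0.491) and higher at 48 h (2.01, interval 1.81 to 2.22). Hist1h2bc gave 502 of the 582 H2B UMIs at 48 h. The other 16 H2B genes summed to 40.8, 27.3, 15.8, 19.2 and 15.3 CPM over the brequinar times, ratios of 0.668, 0.387, 0.470 and 0.374 to 0 h. H4 stood at 113, 102, 131, 116 and 144 CPM with ratios of 0.903, 1.16, 1.02 and 1.28, and at 24 h its direction turned with TMM scaling (0.866). Hist1h4i gave 1938 of the 2090 H4 UMIs at 12 h of brequinar, against 1711 of 2253 at 0 h. The other 12 H4 genes summed to 27.2, 14.5, 9.53, 7.55 and 9.74 CPM, ratios of 0.532, 0.350, 0.278 and 0.358. With these 2 genes set aside after their values were seen, the sums of all 5 families lay below 0 h at all 4 brequinar times, also with TMM scaling.

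Under withdrawal the H1 sum was 306, 368, 328, 316 and 323 CPM and the H2A sum 75.1, 64.1, 59.8, 82.1 and 75.6 CPM at 0, 6, 12, 24 and 48 h. H2B stood at 55.1, 72.9, 63.4, 54.0 and 64.8 CPM, H3 at 35.5, 29.9, 30.9, 37.1 and 20.5 CPM and H4 at 101, 124, 112, 96.4 and 82.5 CPM over those times. The family farthest from its 0 h value was H3 at 48 h, at a ratio of 0.578 (0.479 to 0.694). The ratio of H1 at 12 h and of H2B at 24 h changed direction with TMM scaling (0.985 and 1.01). H2B without Hist1h2bc and H4 without Hist1h4i stood at 0.524 and 0.730 times 0 h at 48 h of withdrawal.

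**Figure D2:**
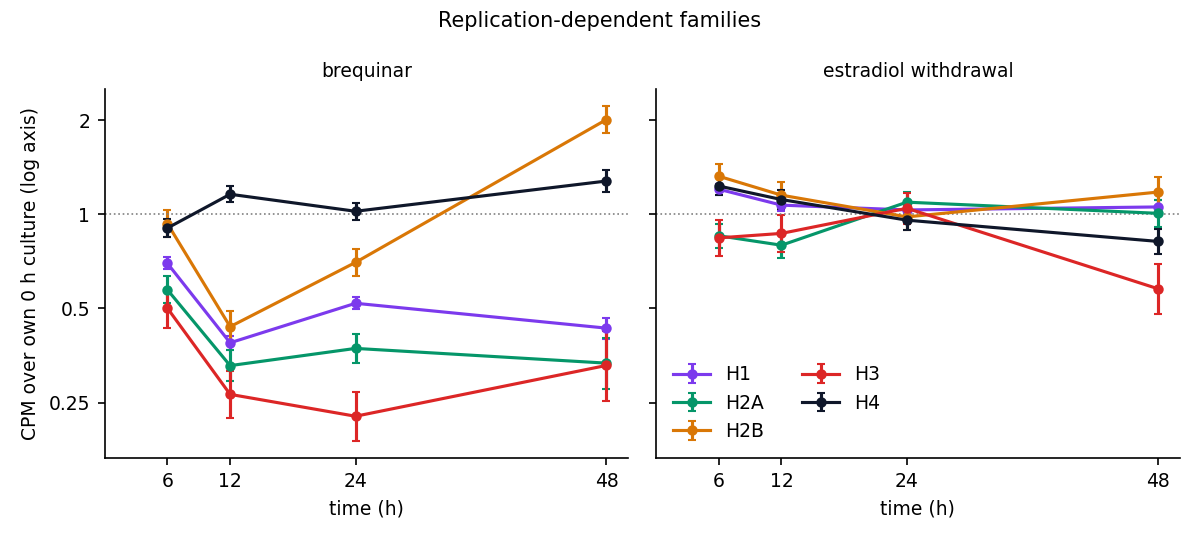
Ratio of summed CPM to the 0 h culture of the same series (log axis) against time in h for the 5 replication-dependent families, brequinar left and withdrawal right; bars are exact 95% counting intervals. At 12 h of brequinar H1, H2A, H2B and H3 lie between 0.266 and 0.437 while H4 lies at 1.16 with Hist1h4i and would lie at 0.350 without it; at 48 h H2B lies at 2.01 with Hist1h2bc and would lie at 0.374 without it.

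Over the 10 conditions together, the linker gene Hist1h1b held the most replication-dependent UMIs, 22049 of 68017. At 12 h of brequinar Hist1h4i stood above it. At 48 h of brequinar Hist1h1b held 15.6% of these UMIs, against 31.5% for Hist1h4i and 22.5% for Hist1h2bc. Hist1h1b stood at 203, 121, 86.1, 108 and 66.6 CPM at 0, 6, 12, 24 and 48 h of brequinar. At those times of withdrawal it stood at 205, 227, 210.3, 196 and 171 CPM. The 4 brequinar cultures are all lower than the lowest withdrawal culture. Its ratio to 0 h was 0.424 (0.399 to 0.451) at 12 h and 0.329 (0.294 to 0.367) at 48 h of brequinar, and 0.832 (0.779 to 0.888) at 48 h of withdrawal. Hist1h1e, another linker gene, stood at 53.0, 40.4, 15.5, 26.0 and 19.3 CPM in the brequinar series and at 50.1, 55.8, 49.3, 62.2 and 58.7 CPM in the withdrawal series. Again every brequinar culture after 0 h is below every withdrawal culture. For the linker gene Hist1h1a the values were 25.5, 20.1, 4.39, 4.52 and 3.25 CPM in the brequinar series. In the withdrawal series they were 23.4, 30.2, 22.5, 18.2 and 7.87 CPM, so this gene was also lower at 48 h of withdrawal (0.336, interval 0.249 to 0.447). At 48 h of brequinar its ratio was 0.127 (0.0736 to 0.206).

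The core histone genes Hist1h2ae and Hist1h2ap encode H2A. Hist1h2ae stood at 30.8, 20.6, 9.78, 12.4 and 11.1 CPM in the brequinar series and at 33.4, 32.7, 27.7, 41.4 and 43.1 CPM in the withdrawal series. It was lower in all brequinar cultures after 0 h than in any withdrawal culture. Hist1h2ap, which shares most of its sequence with other copies, stood at 14.6, 6.10, 5.01, 5.41 and 6.30 CPM and 15.0, 9.18, 10.1, 14.4 and 12.2 CPM in those series. The H2B gene Hist1h2bj had 276 UMIs at 0 h and 4 at 48 h of brequinar (13.8, 9.68, 4.95, 1.96 and 0.764 CPM over the series), a ratio of 0.0552 (0.0149 to 0.143). Under withdrawal it stood at 15.0, 13.8, 11.8, 12.5 and 5.54 CPM. The linker gene Hist1h1d was at 10.1, 11.1, 2.26, 3.69 and 3.25 CPM in the brequinar and 9.61, 16.5, 14.2, 8.79 and 9.33 CPM in the withdrawal series.

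Hist1h4i, an H4 gene, went the other way. It stood at 85.8, 87.6, 121, 108 and 135 CPM in the brequinar series and at 76.0, 100.2, 90.5, 70.5 and 64.4 CPM in the withdrawal series. The brequinar cultures of 12, 24 and 48 h are the highest of all 10. Its ratio to 0 h was 1.41 (1.33 to 1.51) at 12 h and 1.57 (1.43 to 1.71) at 48 h of brequinar, and with TMM scaling it was lower but above 1 at these times and below 1 at 6 h (1.23, 1.36 and 0.913). On chromosome 13 it lies 1097 bases from Hist1h2ag and 1851 bases from Hist1h2bj. Hist1h2ag, named for its place and after its values were seen, stood at 48 h of brequinar at 0.120 (0.0386 to 0.287) of its 0 h level. Hist1h4i made up 31.5% of the replication-dependent UMIs at 48 h of brequinar and 14.5% at 0 h.

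The linker gene Hist1h1c and the H2B gene Hist1h2bc were higher at 48 h in both series. Hist1h1c stood at 19.5, 23.6, 12.4, 19.4 and 42.0 CPM in the brequinar series and at 17.7, 39.0, 31.3, 31.1 and 76.4 CPM in the withdrawal series. Its ratio at 48 h was 2.16 (1.82 to 2.55) for brequinar and 4.31 (3.75 to 4.96) for withdrawal. Hist1h2bc stood at 14.5, 24.4, 8.40, 19.6 and 95.9 CPM in the brequinar series and at 13.6, 31.8, 25.5, 15.6 and 43.1 CPM in the withdrawal series. Its 48 h ratios were 6.61 (5.71 to 7.67) and 3.16 (2.67 to 3.76), and both genes were below 0 h at 12 h of brequinar. Barcodes of 2 to 100 UMIs, which mostly hold free RNA, had 48.0 CPM of Hist1h1c and 37.4 CPM of Hist1h2bc, and the part of free RNA in these levels was not tested. The 3 megakaryocyte markers, all detected, summed to 169 CPM at 48 h of brequinar, against 31.4 CPM at 0 h, and to 36.1 CPM at 48 h of withdrawal, against 32.2 CPM at 0 h. Their part in these results was not tested. Without Hist1h4i, Hist1h1c and Hist1h2bc, left out after their values were seen, the sum was 470.4, 296, 168, 204 and 154 CPM in the brequinar and 465, 488, 446, 469 and 383 CPM in the withdrawal series. The ratio to 0 h at 48 h was then 0.328 (0.305 to 0.352) for brequinar and 0.822 (0.787 to 0.859) for withdrawal.

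**Figure D3:**
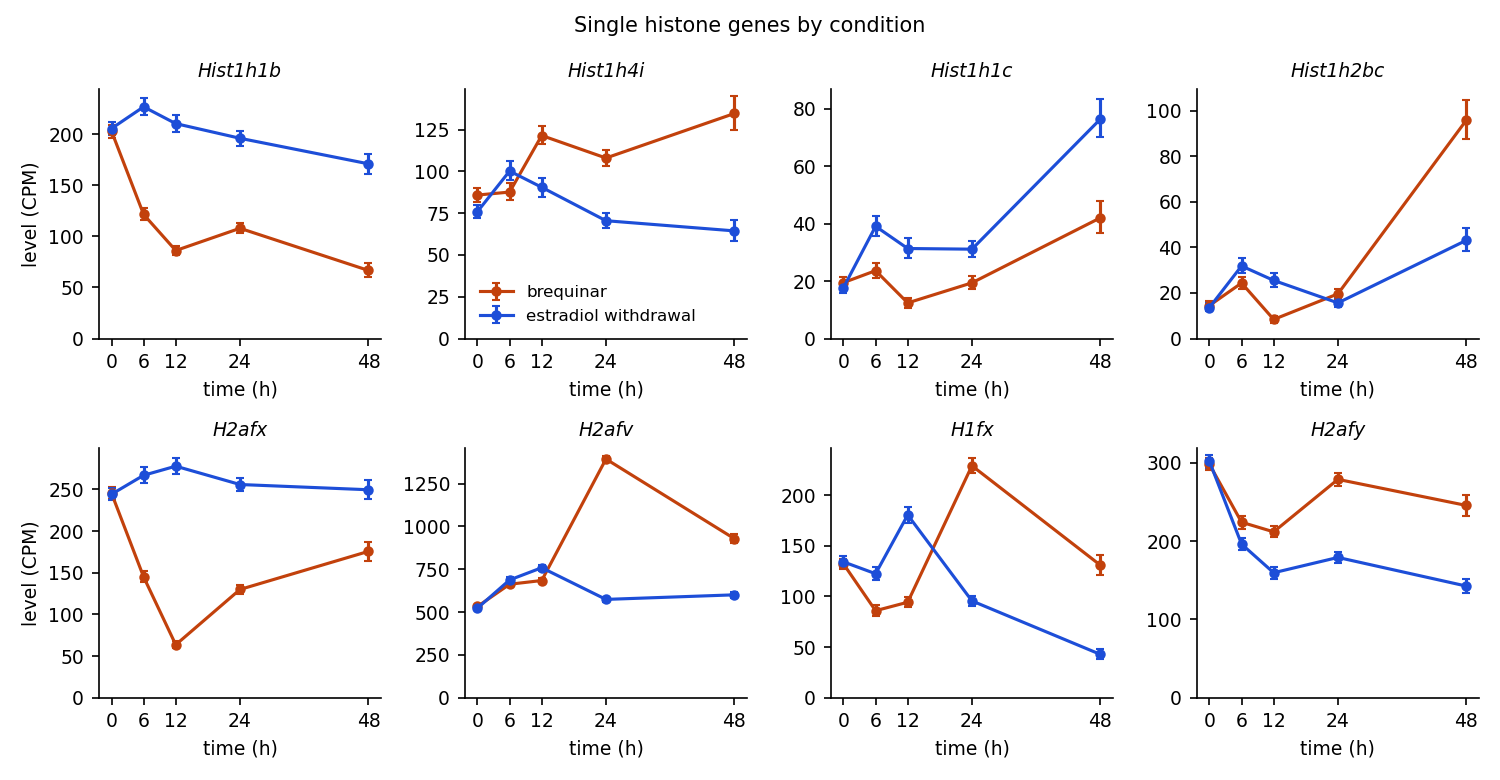
Level in CPM against time in h of 4 replication-dependent genes (top) and 4 variant genes (bottom) in the brequinar and withdrawal series; points are single cultures and bars exact 95% counting intervals. Hist1h1b and H2afx are lower in every brequinar culture after 0 h than in every withdrawal culture, Hist1h4i is higher from 12 h on, and H2afv peaks at 1394 CPM at 24 h of brequinar.

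A member with at least 20 CPM in either culture counts as measured, and past 1.5-fold as higher or lower. At 6 h of brequinar 1 of 15 members was higher and 3 were lower, beside 8.82% and 4.97% of all 5851 genes measured. With TMM scaling 1 of 15 were higher and 6 lower, beside 4.81% and 10.5% of all genes. At 12 h 0 of 13 were higher and 5 lower, beside 13.5% and 4.67% of all genes. With TMM scaling 0 of 14 were higher and 8 lower, beside 6.64% and 11.2% of all genes. At 24 h 2 of 13 were higher and 5 lower, beside 29.2% and 13.8%. With TMM scaling 1 of 14 were higher and 6 lower, beside 18.8% and 23.7% of all genes. At 48 h 4 of 15 were higher and 4 lower, beside 25.7% and 17.3%. With TMM scaling 3 of 15 were higher and 5 lower, beside 18.7% and 27.4% of all genes. Hist1h4i then lay below the 1.5-fold threshold, and H2afx passed it downward (0.623). With a minimum of 5 CPM, which brings in more replication-dependent genes, 9 of 19 were lower at 6 h (4.75% of all genes), 17 of 18 at 12 h (4.53%), 14 of 19 at 24 h (12.5%) and 14 of 18 at 48 h (16.5%). Their median log2 ratio (pseudocount 5 CPM) was -0.79 at 12 h, -0.83 at 24 h and -0.89 at 48 h, beside 0.14, 0.21 and 0.09 over all genes at that minimum. Of the 22 at 5 CPM in any condition, 16 lay below 0 h at all 4 brequinar times, beside 15.0% of 9550 genes, and 4 at all 4 withdrawal times, beside 25.4%. The 42 with less, in sum 42.3 CPM at 0 h, stood at 0.355 (0.306 to 0.410) of that at 12 h of brequinar. Lying below 0 h at all 4 brequinar times was not particular to replication-dependent genes. Of 8 variants at 5 CPM in any condition, 5 did so, and 3 lay below 0 h at all 4 withdrawal times.

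For withdrawal 2 of 15 members were higher and 1 lower at 6 h, beside 12.3% and 8.11% of all genes measured. With TMM scaling 2 of 15 were higher and 2 lower, beside 6.9% and 14.3% of all genes. At 12 h 2 of 15 were higher and 1 lower, beside 13.4% and 11.2%. With TMM scaling 2 of 15 were higher and 2 lower, beside 9.41% and 16.7% of all genes. The added lower member was H2afz at both times (0.606 and 0.614). At 24 h 1 of 14 was higher and 1 lower, beside 9.46% and 11.9%. At 48 h 3 of 15 were higher and 4 lower, beside 21.5% and 40.7%. With a minimum of 5 CPM, 4 of 19 replication-dependent genes were lower at 6 h, 2 of 18 at 12 h, 0 of 20 at 24 h and 6 of 18 at 48 h, beside 7.53%, 10.2%, 13.1% and 38.1% of all genes. With TMM scaling 4 of 15 members were lower at 48 h, beside 31.9% of all genes. With no minimum 30 of 67 members were lower at 48 h, beside 42.4%. Hist1h1c was higher at all 4 withdrawal times, and H2afy was lower at all 4.

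**Figure D4:**
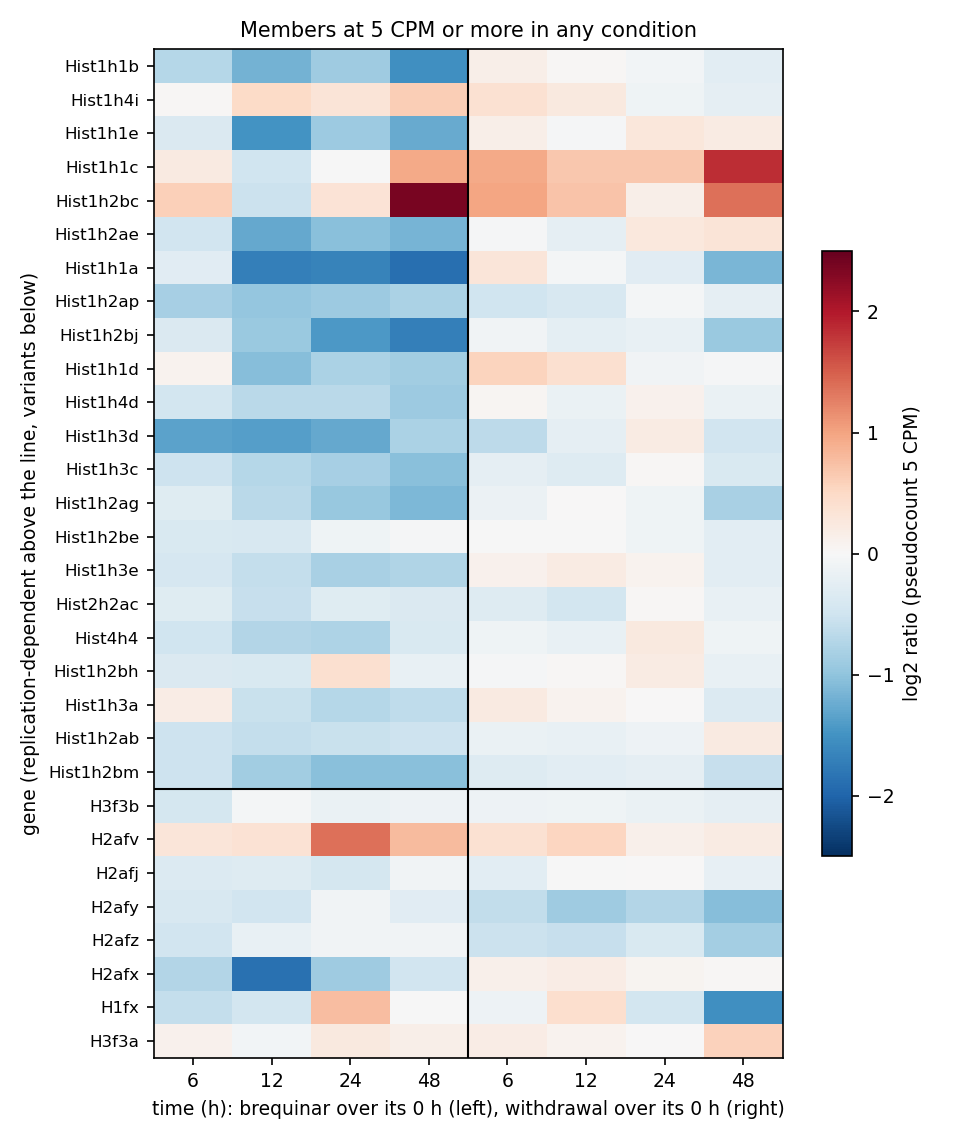
Log2 ratio to the 0 h culture of the same series (pseudocount 5 CPM, color) for the 30 members at 5 CPM or more in any condition, at 6, 12, 24 and 48 h of brequinar (left) and of withdrawal (right); replication-dependent genes are above the line, variants below, each ordered by mean level. Most replication-dependent rows are blue under brequinar, with Hist1h4i, Hist1h1c and Hist1h2bc red at 48 h, while H2afx is the bluest variant at 12 h.

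Together the variants stood at 5352, 4211, 4937, 5627 and 5313 CPM in the brequinar series and at 5372, 4974, 5218, 4879.5 and 4533 CPM in the withdrawal series. The brequinar ratios were 0.787, 0.922, 1.05 and 0.993 at 6, 12, 24 and 48 h and the withdrawal ratios 0.926, 0.971, 0.908 and 0.844; at 24 h of brequinar the direction turned with TMM scaling (0.891), and with cells weighted to the phase class shares of 0 h the withdrawal ratios were 1.02 at 12 h and 1.00 at 48 h. With each cell weighted equally the brequinar ratio at 48 h was 1.09, also turned. H3f3b, which encodes the H3 variant placed outside replication, made up 60.0% of the variant UMIs at 0 h of the brequinar series. Without H3f3b the variants summed to 2138, 1840.4, 1823, 2779 and 2355 CPM in the brequinar series, with ratios of 0.861, 0.852, 1.30 and 1.10 to 0 h, and the 48 h ratio turned with TMM scaling (0.959). In the withdrawal series the ratios without it were 0.945, 1.04, 0.929 and 0.833, the 12 h one turned with TMM scaling (0.958), and brequinar over withdrawal gave 0.913, 0.822, 1.40 and 1.33 at 6, 12, 24 and 48 h. These last ratios depend on scaling. In this comparison TMM scaling moved the median log2 ratio of all genes by -0.26 at 24 h and -0.37 at 48 h. The sum of all variants turned to below 1 with it at both times. H3f3b stood at 3214, 2371, 3114, 2848 and 2959 CPM in the brequinar series and at 3239, 2959, 3001, 2898 and 2756 CPM in the withdrawal series. H3f3a, which encodes the same protein, stood at 24.0, 26.3, 22.7, 29.2 and 26.9 CPM and 23.4, 27.2, 25.3, 23.5 and 37.3 CPM, and was higher at 48 h of withdrawal (1.59, interval 1.36 to 1.86).

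H2afx encodes the H2A that is phosphorylated around DNA breaks, and its mRNA can end in the stem-loop or in poly(A). It stood at 245, 145, 63.7, 130.0 and 176 CPM in the brequinar series and at 244, 267, 278, 256 and 249.6 CPM in the withdrawal series. All 4 brequinar cultures after 0 h are below all withdrawal cultures, and the lowest is 12 h at 0.259 (0.242 to 0.278) of 0 h. At 48 h of brequinar the ratio was 0.716 (0.666 to 0.768). H2afv encodes an H2A.Z protein of nucleosomes at gene starts. It stood at 533, 663, 685, 1394 and 928 CPM in the brequinar series and at 524, 688, 759, 574 and 601 CPM in the withdrawal series. Its highest culture was 24 h of brequinar, at 2.61 (2.56 to 2.68) times 0 h. H2afz, which encodes the other H2A.Z protein, stood at 256, 183, 225, 239 and 240.2 CPM and 256, 175, 171, 196 and 140.0 CPM, so it was lowest at 48 h of withdrawal (0.547, interval 0.510 to 0.586).

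H1fx, a linker histone variant, stood at 132, 85.9, 94.3, 229 and 131 CPM in the brequinar series and at 134, 122, 180.4, 95.6 and 42.8 CPM in the withdrawal series. It was highest at 24 h of brequinar (1.73, interval 1.65 to 1.82, and 1.47 with TMM scaling, under the 1.5-fold threshold) and lowest at 48 h of withdrawal (0.319, interval 0.282 to 0.361). H2afy encodes macroH2A, a histone of silent chromatin. Its values were 298, 224, 212, 279 and 246 CPM in the brequinar series and 302, 196, 159.7, 179 and 143 CPM in the withdrawal series. Every withdrawal culture after 0 h was below every brequinar culture, and the 48 h ratio was 0.473 (0.441 to 0.506). H2afj, an H2A variant, stood at 649.6, 513, 520.2, 479 and 607 CPM and 649.7, 539, 644, 656 and 562 CPM in the brequinar and withdrawal series.

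Set against withdrawal at the same time, brequinar cultures had a replication-dependent sum of 0.654 (0.632 to 0.677) times at 6 h, 0.522 (0.503 to 0.542) at 12 h, 0.600 (0.580 to 0.620) at 24 h and 0.753 (0.715 to 0.794) at 48 h. At 6 h 0 of 15 members were higher with brequinar and 5 lower, beside 1.9% and 1.45% of all genes measured. At 12 h 0 of 15 were higher and 8 lower, beside 13.2% and 7.33%. At 24 h 4 of 13 were higher and 5 lower, beside 29.6% and 8.05%. With TMM scaling 2 of 13 were higher and 6 lower, beside 17.3% and 17% of all genes. At 48 h 6 of 14 were higher and 4 lower, beside 37.6% and 8.57%. With TMM scaling 3 of 14 were higher and 6 lower, beside 17.8% and 19.9% of all genes. Replication-dependent genes at 5 CPM or more were lower in 9 of 17 cases at 6 h, 15 of 16 at 12 h, 15 of 18 at 24 h and 10 of 13 at 48 h, beside 2.98%, 8.62%, 7.82% and 9.76% of all genes. Hist1h1b, Hist1h1c and Hist1h2ae were lower with brequinar at all 4 times. At 48 h H1fx, Hist1h4i and Hist1h2bc were higher with either scaling. H2afv, H2afy and H2afz, at 1.54, 1.72 and 1.72 times, stood at 1.18, 1.32 and 1.32 with TMM scaling, under the 1.5-fold threshold. Hist1h2bc stood at 2.22 (1.92 to 2.57) times and H1fx at 3.05 (2.66 to 3.51) times the withdrawal culture.

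Cells were put into S, G2/M and G1-like classes by scores on phase genes without histone or histone supply genes, in 10949 cells thinned to 2500 UMIs. A class is a range of a score and not a cell type, and 1546 cells (14.1%) lay within 0.05 of a border. The median S score was 0.26 in the S class, 0.04 in the G2/M class and -0.12 in the G1-like class, and the median G2/M score was -0.01, 0.31 and -0.18 in those classes. Cells left out for depth numbered 13 to 212 per brequinar culture and 75 to 249 per withdrawal culture. Under brequinar 53.9, 49.1, 65.9, 25.3 and 11.8% of cells fell in the S class at 0, 6, 12, 24 and 48 h, and between 2.57% and 21.2% in the G1-like class, with 20.2% at 48 h. Under withdrawal the S class held 52.9, 42.9, 29.5, 44.1 and 12.7% and the G1-like class 3.58, 17.5, 30.7, 17.6 and 60.1%. The G2/M class held 43.5, 39.6, 39.7, 38.3 and 27.1% over those times. Called on full counts, the S class held 53.4, 47.7, 63.9, 29.4 and 17.1% over the brequinar times and 52.7, 40.6, 28.4, 42.8 and 14.9% over the withdrawal times. In the S class the replication-dependent sum was 659, 437, 307, 339 and 496 CPM over the brequinar times and 651, 649, 728, 614 and 759.7 CPM over the withdrawal times. The S class share at 12 h of brequinar was the highest of all cultures, and the level within it was 0.467 (0.447 to 0.487) of 0 h. Within the G2/M class the sum was 546, 537, 328, 359 and 357 CPM for brequinar and 517, 803, 746, 687 and 931 CPM for withdrawal. At 48 h of withdrawal the G2/M class stood at 1.80 (1.71 to 1.89) times its 0 h level and the S class at 1.17 (1.08 to 1.26) times, while the sum over all cells lay at 0.989.

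The G1-like class held 318, 237, 209.5, 315 and 705 CPM for brequinar and 315, 332, 231, 209 and 223 CPM for withdrawal, on 76 to 720 UMIs. Its 48 h brequinar value is the highest of that class. Hist1h2bc accounted for 241 of the 572 UMIs there, Hist1h4i for 145 and Hist1h1c for 105, whereas Hist1h1b had 10. Hist1h1b in this class was 46.7, 17.0, 33.1, 44.4 and 12.3 CPM for brequinar, and in the S class it was 239.6, 133, 86.6, 93.2 and 120.1 CPM. Hist1h2bc in the G1-like class was 29.6, 46.2, 27.6, 91.2 and 297 CPM for brequinar and 40.8, 88.7, 51.3, 30.5 and 55.2 CPM for withdrawal. H2afx was lower under brequinar in each class: at 12 h its ratio to 0 h was 0.341 (0.310 to 0.375) in the S class, 0.216 (0.194 to 0.240) in the G2/M class and 0.366 (0.207 to 0.613) in the G1-like class. Under withdrawal H2afx in the G2/M class was 340.4, 448, 491, 400.3 and 557 CPM and in the G1-like class 132, 59.1, 59.4, 81.9 and 27.0 CPM. Barcodes of 2 to 100 UMIs held a replication-dependent sum of 486 CPM (454 to 519), and the part of free RNA in the class levels was not tested.

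**Figure D5:**
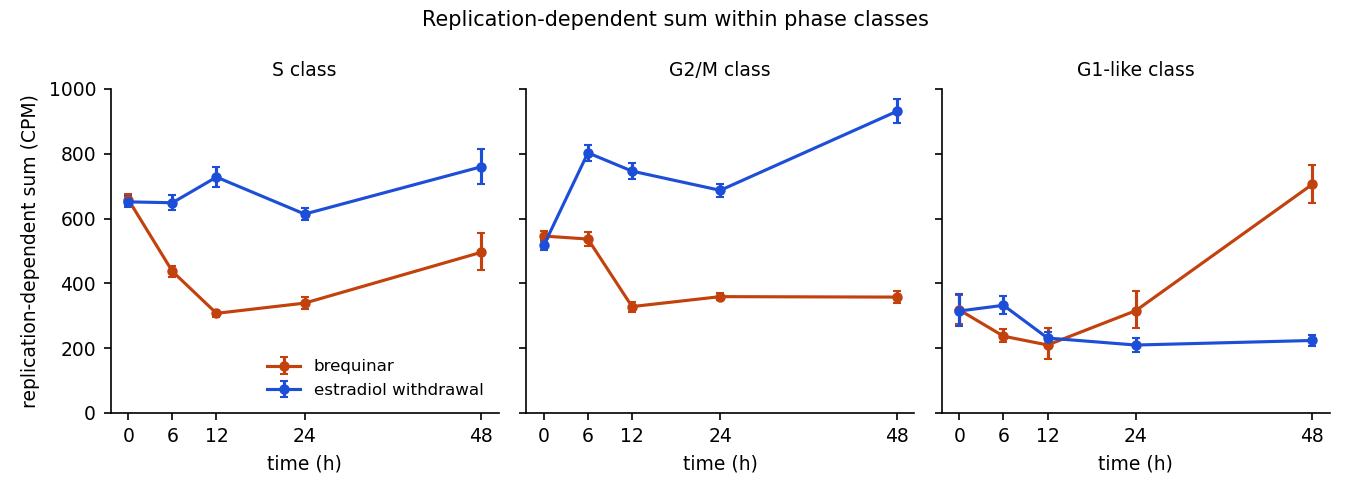
Replication-dependent sum in CPM against time in h within cells of the S, G2/M and G1-like classes, for brequinar and withdrawal; points are single cultures and bars exact 95% counting intervals. In the S and G2/M classes the brequinar cultures of 12, 24 and 48 h lie below all withdrawal cultures, and in the G1-like class the 48 h brequinar culture stands highest.

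The supply list holds 40 genes that make, process, degrade or carry histones. At 6, 12, 24 and 48 h of brequinar 3 of 34, 7 of 35, 10 of 35 and 6 of 34 measured genes were higher, beside 8.82%, 13.5%, 29.2% and 25.7% of all genes. Lower were 2, 2, 6 and 7, beside 4.97%, 4.67%, 13.8% and 17.3%. At those times of withdrawal 6, 3, 0 and 2 of 34 were higher, beside 12.3%, 13.4%, 9.46% and 21.5%, and 2, 3, 5 and 20 lower, beside 8.11%, 11.2%, 11.9% and 40.7%. Brequinar over withdrawal gave 0 of 34, 6 of 35, 15 of 33 and 19 of 33 higher, beside 1.9%, 13.2%, 29.6% and 37.6%. Lower were 0, 1, 3 and 0, beside 1.45%, 7.33%, 8.05% and 8.57%. In this comparison TMM scaling moved the median log2 ratio of all genes by -0.26 at 24 h and -0.37 at 48 h. Supply counts with TMM scaling are not given here. Nasp, a chaperone of H3 and H4, stood at 308, 181, 175, 138 and 109 CPM in the brequinar series and at 312, 189, 155, 195 and 82.0 CPM in the withdrawal series. It was below its 0 h level in all 8 later cultures. Npm1, a nucleolar histone chaperone, stood at 3764, 4266, 3218, 1288 and 1252 CPM and 3821, 3906, 2920.4, 2624 and 1279.9 CPM, and Supt16, a subunit of the FACT complex, at 194, 166, 210.1, 155 and 114 CPM and 199, 162, 151, 125 and 56.1 CPM. Slbp, whose protein binds the stem-loop, stood at 43.7, 37.6, 63.7, 53.3 and 33.0 CPM in the brequinar series and at 40.7, 45.6, 38.9, 40.6 and 27.8 CPM in the withdrawal series. At 12 h of brequinar, when the replication-dependent sum was lowest, Slbp was at 1.46 (1.33 to 1.60) times 0 h. Npat, a coactivator of histone gene transcription, stood at 22.0, 21.6, 27.9, 31.7 and 23.7 CPM and 23.2, 25.5, 22.6, 18.3 and 9.91 CPM in those series. Tut7, whose human protein adds uridine to histone mRNA in decay, was higher at 48 h of brequinar (1.87, interval 1.57 to 2.21) and of withdrawal (2.16, interval 1.85 to 2.52). Lsm10, a part of the particle that cuts histone pre-mRNA, was at 49.7, 80.5, 77.3, 74.9 and 69.3 CPM in the brequinar and 48.3, 85.6, 72.8, 45.7 and 72.6 CPM in the withdrawal series. Cenpa, the H3 of centromeres, stood at 679.7, 565, 489, 1152 and 1440.0 CPM in the brequinar series and at 687, 774, 842, 724 and 615 CPM in the withdrawal series. It was highest at 48 h of brequinar (2.12, interval 2.06 to 2.18).

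Promoters are shown for 4 linker genes and for Hist1h4i, since 3 of these linker genes were lower at 48 h of brequinar and Hist1h1c and Hist1h4i were higher. Each line gives the 250 bases before the start in RefSeq (GRCm38.p6) on the strand of the gene, and capitals mark motifs on either strand: CCAAT, the TATA box TATAAA, and the H1 box AAACACA.
Hist1h1b: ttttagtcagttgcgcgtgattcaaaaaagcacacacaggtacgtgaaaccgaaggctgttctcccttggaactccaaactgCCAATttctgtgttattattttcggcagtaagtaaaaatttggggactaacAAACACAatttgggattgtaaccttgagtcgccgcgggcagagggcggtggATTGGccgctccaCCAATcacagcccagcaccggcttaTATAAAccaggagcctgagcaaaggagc
Hist1h1e: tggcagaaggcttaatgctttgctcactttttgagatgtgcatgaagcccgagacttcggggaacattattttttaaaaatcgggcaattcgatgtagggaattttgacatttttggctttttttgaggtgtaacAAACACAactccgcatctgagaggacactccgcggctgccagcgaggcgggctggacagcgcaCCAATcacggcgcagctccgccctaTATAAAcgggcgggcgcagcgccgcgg
Hist1h1a: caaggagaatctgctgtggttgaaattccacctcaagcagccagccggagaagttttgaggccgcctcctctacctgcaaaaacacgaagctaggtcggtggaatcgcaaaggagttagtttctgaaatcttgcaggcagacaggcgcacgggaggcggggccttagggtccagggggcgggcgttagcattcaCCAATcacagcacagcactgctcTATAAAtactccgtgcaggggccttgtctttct
Hist1h1c: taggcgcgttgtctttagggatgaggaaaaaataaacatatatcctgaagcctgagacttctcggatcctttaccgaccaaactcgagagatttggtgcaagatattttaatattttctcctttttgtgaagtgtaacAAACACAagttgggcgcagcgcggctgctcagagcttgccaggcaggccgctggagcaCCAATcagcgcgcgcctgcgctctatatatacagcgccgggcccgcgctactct
Hist1h4i: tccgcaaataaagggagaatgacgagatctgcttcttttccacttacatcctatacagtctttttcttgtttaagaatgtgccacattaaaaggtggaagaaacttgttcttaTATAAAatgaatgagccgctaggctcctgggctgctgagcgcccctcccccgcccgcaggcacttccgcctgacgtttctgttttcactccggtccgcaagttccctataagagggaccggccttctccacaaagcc

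They lie at chr13:21780626-21780875 (minus strand), chr13:23622559-23622808 (minus), chr13:23763418-23763667 (plus), chr13:23738557-23738806 (plus) and chr13:22041363-22041612 (minus). All 4 linker promoters held CCAAT 52 to 56 bases before the start, and Hist1h4i held none. TATAAA lay 28, 27 and 33 bases before the start in Hist1h1b, Hist1h1e and Hist1h1a, was not found in Hist1h1c, and lay 137 bases before it in Hist1h4i. The H1 box lay 117, 115 and 112 bases before the start in Hist1h1b, Hist1h1e and Hist1h1c. CCAAT was thus found in linker genes that were lower at 48 h of brequinar and in Hist1h1c, which was higher. Of 59 replication-dependent promoters matched by symbol, 81.4% held CCAAT, 45.8% TATAAA and 10.2% the H1 box, beside 37.5%, 14.3% and 7.20% of 27025 genes. The octamer ATTTGCAT stood in 20.3% and the E2F motifs TTTCGCGC or TTTGGCGC in 11.9%, beside 1.81% and 0.759%. By family, CCAAT was in 5 of 5 H1, 17 of 17 H2A, 15 of 15 H2B, 8 of 10 H3 and 3 of 12 H4 promoters, and the octamer in 6 H2A and 6 H2B promoters only. The H1 box was in 4 of 5 H1, 1 of 17 H2A and 1 of 15 H2B promoters and in no H3 or H4 promoter. Of 14 variant promoters 64.3% held CCAAT and 7.14% TATAAA. Such matches describe letters in a window and not factor binding.

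Among 4272 other genes that reached 50 CPM in some condition, Nsmce2, Dnajc30, Pdzd8, Supt4a and Bri3bp ran most like the replication-dependent sum over the 10 conditions. Their Pearson r of log2(CPM + 5) was 0.921, 0.871, 0.857, 0.841 and 0.828. For the variant sum they were Cenpc1, Pimreg, Slc6a13, Anapc11 and Nuf2, with r of 0.959, 0.921, 0.902, 0.882 and 0.875. These are the top of a search over genes, and all share the same 10 cultures and their depths.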

How the data were processed

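The data are counts of unique molecular identifiers (UMIs) of single cells of 10 cultures, barcoded with MULTI-seq and pooled for 2 runs, per the labels' protocols. The authors deposited the raw UMI counts per cell barcode and gene, unfiltered and with both runs in 1 matrix, and only the spliced matrix was used. kallisto 0.46, bustools 0.39.4 and Cell Ranger are named without a role, per the submitters' processing notes, and build, annotation and strand setting were not given in the sources used here. The authors' deposited calls left 12540 cells of 15582 barcodes, after 2777 doublets (17.8%) and 265 negatives were left out, and no doublet caller was added. These cells held 63.9% of the UMIs.

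Counts were summed per condition and scaled to CPM. Levels have exact Poisson intervals and ratios exact Clopper-Pearson intervals of the conditional binomial, both 95%. Members and all genes were counted past 1.5-fold at 20 CPM or more in either culture, with log2 ratios on CPM plus 5. Symbols were matched for 54723 of 54838 IDs, and transcripts came from GENCODE M21. Phase classes came from 37 S and 51 G2/M genes (scanpy 1.11.5), with 1591 cells under 2500 UMIs left out. TMM factors came from edgeR 4.0.16 (R 4.3.3), and the code for ratios and intervals was checked on simulated counts. No test between conditions was run.

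The members, lists and alternatives were chosen with earlier results of these data known. Named are members at 20 CPM, a fixed set of variants, the 10 replication-dependent genes of highest mean, the 3 highest and 3 lowest members at 24 and 48 h, and 5 genes per sum by likeness. Of the supply list Slbp, Npat, Nasp, Cenpa and the 2 highest and 2 lowest at 48 h of each treatment are named. Alternatives were TMM scaling, cells without high mitochondrial share, equal cell weights, free RNA removal, weighting to 0 h phase shares, other thresholds, minimums and pseudocounts, and a phase call on full counts.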

Additional observations from a re-analysis of the deposited data

Results flagged for a closer look

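H2afx was picked out because all 4 later cultures of the brequinar series lay below their 0 h culture while all 4 of the withdrawal series lay above theirs. Its ratio to 0 h was 0.591, 0.259, 0.530 and 0.716 at 6, 12, 24 and 48 h of brequinar and 1.09, 1.14, 1.05 and 1.02 at those times of withdrawal. The difference between the series was not tested, since each condition is 1 culture, and with TMM scaling the 6 h withdrawal ratio was 0.972, below 1.

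Barcodes of 2 to 100 UMIs enter no comparison except those with free RNA subtracted. They held 1789848 UMIs and a replication-dependent sum of 486 CPM (95% counting interval 454 to 519). It was picked out as a signal in data outside the main measurement, and it lies within the range of the 10 cultures, 309.8 to 659 CPM. In these barcodes Hist1h1b stood at 92.7 CPM, Hist1h4i at 131 CPM, H2afx at 154 CPM and H2afv at 691 CPM.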

How the results depend on the processing

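Each condition is 1 culture, so every interval covers counting error only and a difference between cultures cannot be told apart from one between treatments. Depth limits a single gene to a floor of 0.151 to 0.573 CPM. No paired analysis was possible because the conditions carry no replicate numbers and no test was run. Leaving out each run was not run, since the barcodes do not tell the runs apart. A ratio or count called moved here lies outside its counting interval or beyond 1.5 times the count; 134 of 274 values stayed within. The brequinar ratio of the replication-dependent sum stayed below 1 at all 4 times under the 5 alternatives tried. The cause of the changes below was not tested. With TMM scaling, the replication-dependent ratios at 6, 12, 24 and 48 h were 0.653, 0.456, 0.505 and 0.629 for brequinar, 1.02, 0.955, 1.05 and 1.14 for withdrawal and 0.666, 0.499, 0.501 and 0.578 for brequinar over withdrawal, and the variant ratios 0.704, 0.802, 0.891 and 0.864 for brequinar, 0.824, 0.895, 0.934 and 0.970 for withdrawal and 0.862, 0.904, 0.962 and 0.899 for brequinar over withdrawal. With each cell weighted equally, the replication-dependent ratios at 6, 12, 24 and 48 h were 0.788, 0.569, 0.684 and 0.868 for brequinar, 1.14, 0.946, 1.00 and 0.948 for withdrawal and 0.699, 0.607, 0.690 and 0.925 for brequinar over withdrawal, and the variant ratios 0.820, 0.933, 1.14 and 1.09 for brequinar, 0.928, 0.945, 0.914 and 0.828 for withdrawal and 0.870, 0.972, 1.23 and 1.29 for brequinar over withdrawal. With cells weighted to the 0 h phase class shares, the replication-dependent ratios at 6, 12, 24 and 48 h were 0.796, 0.525, 0.581 and 0.736 for brequinar, 1.23, 1.25, 1.10 and 1.44 for withdrawal and 0.668, 0.434, 0.543 and 0.529 for brequinar over withdrawal, and the variant ratios 0.803, 0.929, 1.03 and 1.00 for brequinar, 0.945, 1.02, 0.932 and 1.00 for withdrawal and 0.847, 0.912, 1.10 and 0.993 for brequinar over withdrawal. With a free RNA share of 5% subtracted from each culture, the replication-dependent ratio was 0.505 at 12 h of brequinar, then 0.501 at 12 h of brequinar over withdrawal, and the variant ratio was 0.776 at 6 h of brequinar. Without cells at 10% or more mitochondrial UMIs, the variant ratio was 1.04 at 24 h of brequinar, then 0.978 at 48 h of brequinar. Directions turned with TMM scaling for the replication-dependent sum at 12 and 48 h of withdrawal and for the variant sum at 24 h of brequinar, then at 24 and 48 h of brequinar over withdrawal. Equal weights turned the replication-dependent sum at 12 h of withdrawal and the variant sum at 48 h of brequinar. Class shares of 0 h turned the replication-dependent sum at 48 h of withdrawal. They also turned the variant sum at 12 and 48 h of withdrawal and at 48 h of brequinar over withdrawal. Members measured follow for brequinar, withdrawal and brequinar over withdrawal. At 2-fold they numbered 15, 13, 13 and 15, then 15, 15, 14 and 15, then 15, 15, 13 and 14. With TMM scaling it was 15, 14, 14 and 15, then 15, 15, 14 and 15, then 15, 15, 13 and 14. At 5 CPM it was 27, 26, 27 and 26, then 27, 26, 28 and 26, then 25, 24, 26 and 21. With no minimum, 68, 67, 68 and 67, then 67, 67, 66 and 67, then 65, 67, 66 and 64. Members higher with a 2-fold threshold numbered 0, 0, 1 and 2 for brequinar, 2, 0, 0 and 2 for withdrawal and 0, 0, 2 and 3 for brequinar over withdrawal, beside 2.41%, 3.52%, 14.7% and 14.4% for brequinar, 3.4%, 4.12%, 4.73% and 14.8% for withdrawal and 0.561%, 3.84%, 13.6% and 17.2% for brequinar over withdrawal of all genes. Those lower with a 2-fold threshold numbered 0, 5, 3 and 4 for brequinar, 0, 0, 0 and 3 for withdrawal and 0, 7, 2 and 3 for brequinar over withdrawal, beside 0.547%, 0.75%, 5.54% and 5.6% for brequinar, 1.86%, 2.33%, 3.09% and 24.8% for withdrawal and 0.153%, 2.05%, 2.12% and 3.73% for brequinar over withdrawal of all genes. Members higher with a minimum of 5 CPM numbered 1, 0, 3 and 4 for brequinar, 3, 2, 1 and 3 for withdrawal and 0, 0, 4 and 6 for brequinar over withdrawal, beside 12.8%, 19.8%, 33.5% and 28.2% for brequinar, 17.8%, 17.4%, 10.5% and 22.8% for withdrawal and 2.48%, 16%, 33.9% and 38.6% for brequinar over withdrawal of all genes. Those lower with a minimum of 5 CPM numbered 11, 18, 15 and 14 for brequinar, 5, 3, 1 and 9 for withdrawal and 10, 17, 16 and 10 for brequinar over withdrawal, beside 4.75%, 4.53%, 12.5% and 16.5% for brequinar, 7.53%, 10.2%, 13.1% and 38.1% for withdrawal and 2.98%, 8.62%, 7.82% and 9.76% for brequinar over withdrawal of all genes. Members higher with no minimum numbered 8, 1, 7 and 8 for brequinar, 11, 8, 8 and 11 for withdrawal and 2, 4, 8 and 10 for brequinar over withdrawal, beside 27.7%, 29.3%, 38.7% and 31.2% for brequinar, 32.6%, 29.5%, 21.2% and 27.5% for withdrawal and 16.1%, 26.5%, 41.3% and 38.7% for brequinar over withdrawal of all genes. Those lower with no minimum numbered 34, 52, 48 and 48 for brequinar, 11, 14, 10 and 30 for withdrawal and 31, 50, 48 and 39 for brequinar over withdrawal, beside 19.2%, 19.4%, 22.8% and 31.8% for brequinar, 19%, 21.9%, 27.2% and 42.4% for withdrawal and 19.6%, 19.7%, 17.8% and 23.3% for brequinar over withdrawal of all genes. Members higher with TMM scaling numbered 1, 0, 1 and 3 for brequinar, 2, 2, 1 and 3 for withdrawal and 0, 0, 2 and 3 for brequinar over withdrawal, beside 4.81%, 6.64%, 18.8% and 18.7% for brequinar, 6.9%, 9.41%, 10.3% and 26.2% for withdrawal and 1.97%, 10.7%, 17.3% and 17.8% for brequinar over withdrawal of all genes. Those lower with TMM scaling numbered 6, 8, 6 and 5 for brequinar, 2, 2, 1 and 4 for withdrawal and 4, 8, 6 and 6 for brequinar over withdrawal, beside 10.5%, 11.2%, 23.7% and 27.4% for brequinar, 14.3%, 16.7%, 10.2% and 31.9% for withdrawal and 1.11%, 9.19%, 17% and 19.9% for brequinar over withdrawal of all genes. At 2-fold, against the shares of all genes just given for that threshold, histone supply genes higher numbered 0, 1, 0 and 1 for brequinar, 0, 0, 0 and 1 for withdrawal and 0, 1, 1 and 7 for brequinar over withdrawal. At 2-fold, against the shares of all genes just given for that threshold, histone supply genes lower numbered 0, 0, 3 and 3 for brequinar, 0, 1, 0 and 14 for withdrawal and 0, 0, 1 and 0 for brequinar over withdrawal. At 2-fold, 33 to 35 supply genes were measured per comparison. With a minimum of 5 CPM, 16 of 38 supply genes were higher and 5 lower in brequinar over withdrawal at 24 h. Over all genes these shares were 33.9% and 7.82%. Beside these, TMM scaling moved 104 of 180 single gene levels past their counting interval, and a phase call on full counts left the S class levels within it.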
